A study of Mus musculus with 8 samples.

Results

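Endothelial cells line every blood vessel of skeletal muscle, and 10 genes that mark them or their state were followed here across the gastrocnemius, a calf muscle, of mice with and without a tumour. The genes were listed by name and found as 10 of the 23282 rows in each of 8 gene count tables. Pecam1, Cdh5, Kdr, Flt1, Tek, Cldn5 and Emcn were taken as the 7 pan-endothelial genes, and Rgcc, Vwf and Sox17 as the 3 whose level is known to vary with vessel type and cell state. This split is not strict, since Emcn is a gene of capillary and venous endothelium and Kdr also stands in the list of capillary genes used below. The libraries were 3' mRNA libraries made with a Lexogen QuantSeq kit from 500 ng of total muscle RNA, so vessels contributed only part of each.

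All mice were C57BL/6, with a listed age of 4 weeks. Lewis lung carcinoma is a mouse lung tumour line that grows when injected under the skin. The Normal group (n = 3 libraries) received 100 µl of saline under the skin and 200 µl of water by mouth. The Control group (n = 3) received the tumour cells in saline and the same water. In the RP group (n = 2), mice carried the tumour and were given 100 mg/kg of an extract of Paeonia lactiflora, prepared with 30% ethanol, every day for 2 weeks. Tumours grew for 2 weeks before dosing, and the mice were then re-grouped so that tumour sizes matched. Nothing in the labels ties a library to its own mouse, so p-values measure the spread between these libraries, which may be partly technical.

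Table names and titles conflict for 6 libraries: the tables of the 3 Normal samples carry Control names and the tables of the 3 Control samples carry Normal names. Groups follow the titles here, as Normal-titled and Control-titled. If the table names hold instead, every difference between these groups changes sign and the 2 comparisons with RP exchange places.

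Total counts were 9528011 to 12333767 per library. Haemoglobin genes, which come from red blood cells, took 4.57%, 9.56% and 19.7% of the counts in the Normal-titled libraries, against 1.41% to 1.61% in the Control-titled and 0.862% and 3.83% in the RP libraries. Wilson 95% intervals on these shares reached at most 0.0222 percentage points either side and cover counting error only. Neutrophil genes summed to 974 to 1997 CPM (read counts relative to each library's total, scaled with TMM, the trimmed mean of M-values) in Normal-titled, 16.6 to 29.4 in Control-titled and 41.4 and 511 CPM in RP libraries, with 3 of these genes at 0 in every Control-titled library. The first principal component of all genes separated Normal-titled libraries, between -45.8 and -29.7, from Control-titled libraries, between 29.3 and 34.3, with RP at 17.9 and 0.019. Haemoglobin and neutrophil gene levels were thus higher in every Normal-titled than in every Control-titled library, and their values stand beside the results they touch.

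Endothelial cells hold together through PECAM1, the VE-cadherin encoded by Cdh5 and the tight junction protein claudin-5, and they read growth and stability cues through receptors for VEGF and the angiopoietins. In skeletal muscle the capillary bed carries oxygen and fatty acids to the fibres, and large vessels differ from capillaries in the genes they express. Vwf encodes the clotting factor that binds platelets, Sox17 is a transcription factor of arterial endothelium, and Rgcc encodes a cell cycle regulator that is abundant in capillary endothelium.

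Promoter windows in the RefSeq table (build GRCm38.p6, 250 bases before to 50 after each gene start) existed for 6 of the 10 genes: Emcn, Tek, Kdr, Flt1, Rgcc and Cldn5. The windows of Rgcc and Cldn5, whose levels differed most between Normal-titled and Control-titled libraries, and of Emcn, whose level differed least between these, are printed below from 5′ to 3′ up to the first annotated exon. Capitals mark the ETS core letters GGAA, or TTCC on the other strand, which transcription factors of the ETS family recognise.
Rgcc, chr14:79301646-79301885, minus strand: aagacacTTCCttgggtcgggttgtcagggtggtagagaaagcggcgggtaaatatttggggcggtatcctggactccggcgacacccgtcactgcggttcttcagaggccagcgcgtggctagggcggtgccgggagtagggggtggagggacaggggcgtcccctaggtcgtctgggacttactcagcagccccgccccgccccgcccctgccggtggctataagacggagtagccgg
Cldn5, chr16:18776597-18776846, plus strand: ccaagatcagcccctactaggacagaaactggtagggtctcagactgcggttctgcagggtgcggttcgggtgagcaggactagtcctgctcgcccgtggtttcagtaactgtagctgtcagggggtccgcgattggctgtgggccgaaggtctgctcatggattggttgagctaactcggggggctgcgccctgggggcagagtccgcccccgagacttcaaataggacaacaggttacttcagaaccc
Emcn, chr3:137340828-137341061, plus strand: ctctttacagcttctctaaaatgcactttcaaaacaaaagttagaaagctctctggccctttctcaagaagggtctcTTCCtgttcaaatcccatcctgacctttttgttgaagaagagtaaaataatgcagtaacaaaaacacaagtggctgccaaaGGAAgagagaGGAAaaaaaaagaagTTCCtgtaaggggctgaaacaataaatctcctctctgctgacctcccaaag
The printed stretch held 4 cores for Emcn, 1 for Rgcc and 0 for Cldn5. Over the full windows the core was present in 5 of the 6 genes, all but Cldn5, and in 96% of 32851 windows of the same length. GATA or its reverse complement TATC stood in the windows of Emcn, Tek, Kdr and Rgcc and in 57.9% of all windows. The SOX letters ACAAT (reverse ATTGT) stood in those of Emcn and Tek and in 31% of all. The forkhead letters GTAAACA (reverse TGTTTAC) and the hypoxia response core ACGTG (reverse CACGT) stood in 0 of the 6, against 3.65% and 19.6% of all windows. These matches describe letters in a window and are not measured binding sites.

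The comparison of Control-titled with Normal-titled libraries asks how tumour-bearing muscle differed from muscle without a tumour. Rgcc, Vwf and Cldn5 were lower in Control-titled muscle, by 2.80-fold, 1.94-fold and 2.38-fold, while the VEGF and angiopoietin receptors and the main junction genes did not pass the test. Of the 10 genes, 0 were higher and 3 lower by edgeR's quasi-likelihood test at an adjusted p under 0.05. Over all 13174 genes tested, 4.99% were called higher and 5.45% lower at the same adjusted threshold. At an unadjusted p under 0.05 there were 5 of the 10, and the share of all genes at that cut is not given here. The median log2 change of the 10 genes was -0.34, against 0.00043 over all genes tested. In bulk muscle RNA, fewer cells of a type and less RNA per cell cannot be told apart.

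Among the state-dependent genes, Rgcc (chr14:79288756-79301645, minus strand, GRCm38, as all gene positions here) stood at 241, 192 and 159 CPM in the Normal-titled libraries, 60.7, 78.0 and 72.9 in the Control-titled and 72.7 and 136 in the RP libraries. Every Control-titled library lay below every Normal-titled library, RP 1 lay within the Control-titled range, and RP 2 lay between the groups. The mean was 197 ± 41.5 CPM (SD, n = 3) in Normal-titled and 70.5 ± 8.90 (SD, n = 3) in Control-titled muscle. The log2 change was -1.49 ± 0.225 (SE; 95% interval -1.97 to -0.999; adjusted p = 0.00125).

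Vwf (chr6:125546774-125686679, plus strand) stood at 30.6, 40.2 and 22.6 CPM in Normal-titled, 15.9, 14.9 and 17.5 in Control-titled and 17.9 and 20.5 in RP libraries. The Control-titled libraries were all below the Normal-titled and the RP libraries, and both RP libraries were below the lowest Normal-titled one. The log2 change in Control-titled muscle was -0.95 ± 0.202 (SE; 95% interval -1.39 to -0.52; adjusted p = 0.00932). Vwf is also stored in platelets. Platelet genes without Vwf summed to 132 to 156 CPM in Normal-titled, 132 to 166 in Control-titled and 113 and 162 CPM in RP libraries. These summed ranges overlapped, but Pf4 was the largest part of each sum. It was 64.1 to 110 CPM in Normal-titled, 112 to 141 in Control-titled and 90.2 and 128 in RP libraries. The platelet markers Gp6 and Tubb1 were near the floor in every group and were not tested. Gp6 was at 0, 0 and 0.097 CPM in Normal-titled libraries and Tubb1 at 0, 0.287 and 0. Both were at 0 in every Control-titled and RP library. Ppbp was 4.77, 7.08 and 18.5 CPM in Normal-titled against 1.18 to 2.20 in Control-titled libraries. Gp1bb averaged 14.1 CPM in Normal-titled and 10.0 in Control-titled libraries, and Gp1ba 1.03 and 1.10, and neither was called. Of 11 platelet genes tested, 0 were higher and 4 lower, namely Vwf, Selp, Ppbp and Treml1, beside 4.99% and 5.45% of all genes tested. The median log2 change of the 11, Vwf included, was -0.95, which is the value of Vwf itself. The part of platelets in the Vwf result was not tested.

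Sox17 (chr1:4490931-4497354, minus strand) stood at 18.4, 26.1 and 28.4 CPM in Normal-titled, 15.4, 14.1 and 17.5 in Control-titled and 14.1 and 18.5 in RP libraries. Its Control-titled libraries lay below its Normal-titled ones without overlap, but by a margin of under 1 CPM between the nearest pair. The log2 change of -0.63 ± 0.197 (SE; 95% interval -1.06 to -0.21) missed the threshold, with an adjusted p of 0.0590. It passed without Normal 1 (adjusted p = 0.00927), with no low-count filter (0.0301) and by DESeq2 (0.0498). Exons of Sox17 overlap Gm37587 on the opposite strand, but no exon of another gene is annotated at the 3' end of Sox17. These are 3' libraries, so that end matters most. Since the strand counted is not given in the sources used here, reads of the 2 genes cannot be fully separated.

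**Figure D1:**
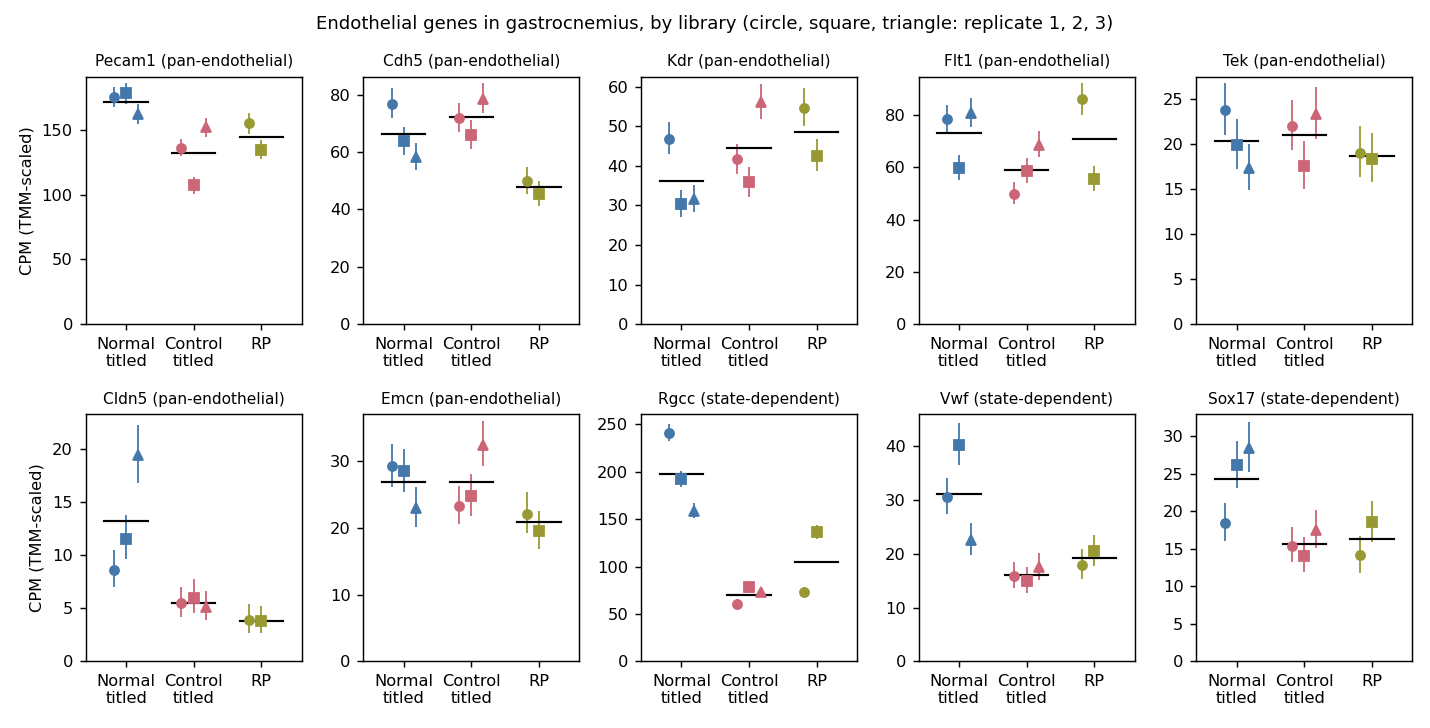
TMM-scaled CPM (y axis, from 0) of each endothelial gene in each library, grouped on the x axis as Normal-titled, Control-titled and RP; bars are group means and error bars are 95% Poisson limits of the count. Rgcc is between 159 and 241 CPM in the Normal-titled libraries and between 60.7 and 78.0 in the Control-titled ones, while the groups overlap for Tek, Emcn, Kdr, Flt1 and Cdh5 in that comparison.

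Cldn5 (chr16:18776847-18778262, plus strand), a tight junction gene, was the only one of the 7 pan-endothelial genes to pass the test here. It stood at 8.64, 11.6 and 19.4 CPM in Normal-titled, 5.47, 6.00 and 5.15 in Control-titled and 3.88 and 3.80 in RP libraries. All Control-titled libraries were below all Normal-titled ones, and both RP libraries were lower still. These levels rest on few reads, between 57 and 62 per Control-titled library and 36 and 37 in the RP libraries, against 96 to 200 in the Normal-titled ones. The log2 change in Control-titled muscle was -1.25 ± 0.284 (SE; 95% interval -1.86 to -0.64; adjusted p = 0.0135). That call was lost without Control 1 (adjusted p = 0.0607) and without Control 3 (0.0688).

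The other junction and surface genes did not pass the test. Pecam1 (chr11:106654217-106750628, minus strand), an adhesion molecule of endothelial junctions, stood at 176, 179 and 163 CPM in Normal-titled, 137, 107 and 152 in Control-titled and 155 and 135 in RP libraries. Its Control-titled libraries were all below the Normal-titled ones, but the log2 change of -0.38 ± 0.155 (SE; 95% interval -0.72 to -0.048) had an adjusted p of 0.136. Stretches of 50 bases at the 3' end of Pecam1 also occur in transcripts of 11 other genes, so its reads may be shared with them. Cdh5 (chr8:104101625-104144511, plus strand), the VE-cadherin gene, stood at 76.8, 63.7 and 58.1 CPM in Normal-titled and 72.0, 65.9 and 78.6 in Control-titled libraries. Those groups overlapped, with a log2 change of 0.12 (95% interval -0.19 to 0.44; adjusted p = 0.646). Emcn (chr3:137341067-137432185, plus strand), a sialomucin of capillary and venous endothelium, ranged from 23.0 to 29.2 CPM in Normal-titled and from 23.3 to 32.5 in Control-titled libraries. Its log2 change was -0.0045 (95% interval -0.38 to 0.37; adjusted p = 0.991), the smallest of the 10.

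The receptor genes overlapped between these groups. Kdr (chr5:75932827-75978458, minus strand), the main signalling receptor for VEGF-A, stood at 46.9, 30.2 and 31.5 CPM in Normal-titled and 41.6, 35.8 and 56.1 in Control-titled libraries, a log2 change of 0.30 (95% interval -0.15 to 0.75; adjusted p = 0.399). Flt1 (chr5:147561604-147726011, minus strand), which binds VEGF-A tightly and limits its action on KDR, averaged 73.1 ± 11.5 CPM in Normal-titled and 59.2 ± 9.41 in Control-titled libraries (SD, n = 3 each), a log2 change of -0.30 (95% interval -0.72 to 0.11; adjusted p = 0.337). Tek (chr4:94739289-94874976, plus strand), the angiopoietin receptor Tie2, averaged 20.3 ± 3.26 and 20.9 ± 3.04 CPM in the same groups, a log2 change of 0.045 (95% interval -0.34 to 0.43; adjusted p = 0.904). Each interval spans 0 and is over 0.7 log2 units wide, so these libraries do not show that the receptors were equal.

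In counts of groups that did not overlap, 0 of the 10 genes were higher and 5 lower in all Control-titled than in all Normal-titled libraries, namely Pecam1, Cldn5, Rgcc, Vwf and Sox17. Over all genes tested, 16.6% were higher and 14.7% lower without overlap.

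**Figure D2:**
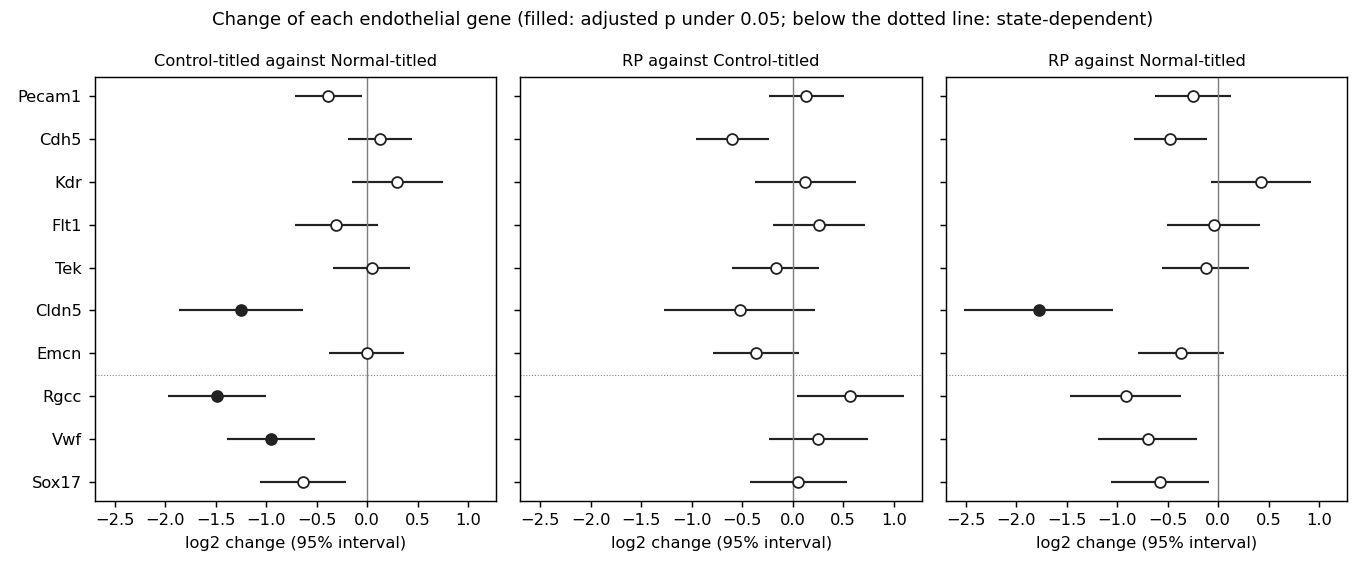
log2 change of each gene (x axis) with its 95% interval, in the 3 comparisons; filled points passed an adjusted p under 0.05 and genes below the dotted line are the state-dependent ones. Rgcc (-1.49), Cldn5 (-1.25) and Vwf (-0.95) are filled in the comparison of Control-titled with Normal-titled libraries, and only Cldn5 (-1.78) in that of RP with Normal-titled libraries.

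Setting each gene against the pan-endothelial genes of its own library removes a difference shared by all endothelial transcripts. The 7 pan-endothelial genes summed to 392 to 440 CPM in Normal-titled, 316 to 417 in Control-titled and 320 and 391 CPM in RP libraries, with overlap. On the log2 scale, Rgcc stood 2.24 ± 0.258 (SD, n = 3) above the mean log2 CPM of these 7 genes in Normal-titled and 0.97 ± 0.248 (SD, n = 3) above it in Control-titled libraries. Its RP libraries were at 1.06 and 2.19, one near each group. Relative to the pan-endothelial mean, Vwf was at -0.51, 0.046 and -0.85 in Normal-titled and between -1.21 and -1.11 in Control-titled libraries, again without overlap. Sox17 overlapped on this scale, since Normal 1 was at -1.24 and the Control-titled libraries between -1.21 and -1.15. The difference between these groups was -1.27 for Rgcc, -0.71 for Vwf and -0.41 for Sox17. Leaving Cldn5 out of the reference gave -1.43, -0.87 and -0.57. A pan-endothelial gene was set against the mean of the others, without itself. On this scale Cdh5 was at 0.59 to 0.95 in Normal-titled and 1.10 to 1.23 in Control-titled libraries. In RP libraries Cdh5 was at 0.60 and 0.71. Kdr, which overlapped in CPM, did not overlap on this scale. Its values were -0.43 to 0.12 in Normal-titled, 0.15 to 0.54 in Control-titled and 0.60 and 0.76 in RP libraries. The reference for Cdh5 and Kdr includes Cldn5, which was lower in Control-titled and RP libraries. No values without Cldn5 are given for these genes, so how far their separation depends on it is not shown.

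**Figure D3:**
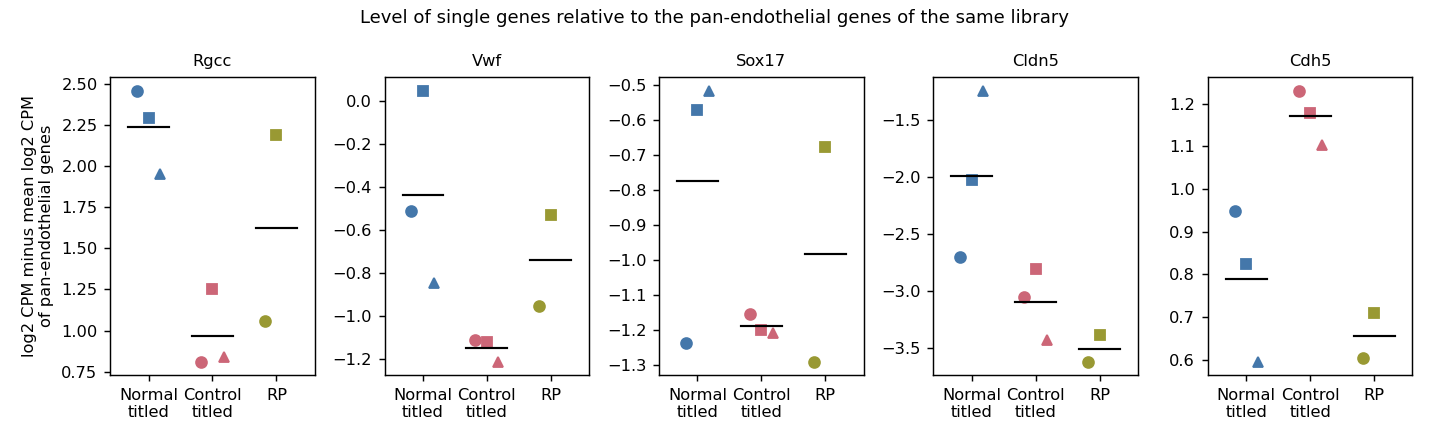
log2 CPM of 5 genes minus the mean log2 CPM of pan-endothelial genes in the same library (y axis, not from 0), by group. The reference is all 7 pan-endothelial genes for Rgcc, Vwf and Sox17, and leaves out the gene itself for Cldn5 and Cdh5. Each point is 1 library and bars are group means. Rgcc and Vwf do not overlap between Normal-titled and Control-titled libraries, Sox17 does through Normal 1 at -1.24, and the RP libraries of Rgcc lie at 1.06 and 2.19.

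The haemoglobin share moved with several of these genes. Cldn5 and Sox17 were highest in Normal 3, the library with the highest haemoglobin share, and lowest among Normal-titled libraries in Normal 1, with the lowest share. Rgcc ran the other way within that group, at 241 CPM in Normal 1 and 159 in Normal 3, and Vwf was also lowest in Normal 3, at 22.6 CPM. Both RP libraries had nearly equal Cldn5, 3.88 and 3.80 CPM, at haemoglobin shares of 0.862% and 3.83%. Of 11 erythroid genes tested, 8 were lower in Control-titled libraries, beside 5.45% of all genes tested. The summed level of the erythroid genes was 29622 to 161838 CPM in Normal-titled, 9210 to 11734 in Control-titled and 6493 and 27809 in RP libraries. With log2 Hba-a1, a haemoglobin gene, as a covariate, the log2 change of Rgcc in Control-titled muscle was -1.41 (adjusted p = 0.0539) and that of Vwf -1.15 (0.0889), against -1.49 and -0.95 without it, and neither passed the threshold. Under that covariate the log2 change of Cldn5 was -0.33 (adjusted p = 0.701) and that of Sox17 -0.054 (0.940). The haemoglobin share did not overlap between Normal-titled and Control-titled libraries, so red cell content and group cannot be told apart in these libraries. Of 11 neutrophil genes tested, 9 were lower in Control-titled libraries, beside the same 5.45% of all genes, and their part in the endothelial results was not tested.

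**Figure D4:**
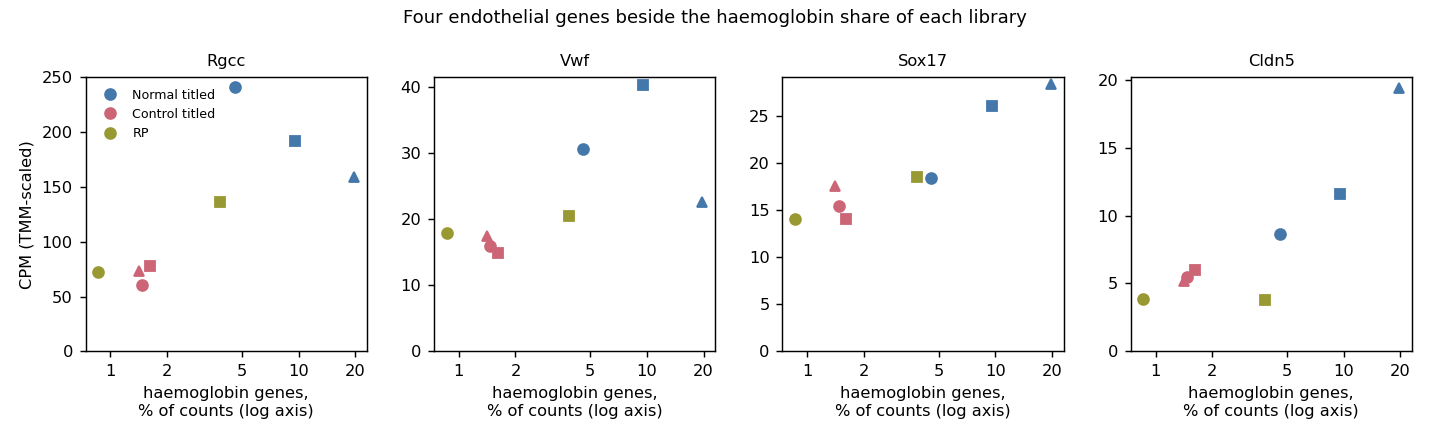
TMM-scaled CPM (y axis) of Rgcc, Vwf, Sox17 and Cldn5 against the haemoglobin genes' percentage of counts (x axis, log scale), 1 point per library. The Normal-titled libraries lie at 4.57% to 19.7% haemoglobin and the Control-titled ones at 1.41% to 1.61%; within the Normal-titled group Rgcc is lowest and Cldn5 highest at 19.7%.

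The comparison of RP with Control-titled libraries asks what the extract changed in tumour-bearing muscle. None of the 10 genes passed the test, with 0 higher and 0 lower by edgeR, by DESeq2 and by limma-voom. Over all genes tested, 0.144% were called higher and 0.0304% lower by edgeR at an adjusted p under 0.05. At an unadjusted p under 0.05 there were 2, Cdh5 and Rgcc, and the share of all genes at that cut is not given here. The median log2 change of the 10 genes was 0.091, against -0.0038 over all genes.

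Cdh5 was 49.9 and 45.3 CPM in the RP libraries, below all Control-titled and all Normal-titled libraries. Its log2 change against Control-titled libraries was -0.60 ± 0.168 (SE; 95% interval -0.96 to -0.24; adjusted p = 0.264). Rgcc had a log2 change of 0.57 ± 0.246 (SE; 95% interval 0.038 to 1.10; adjusted p = 0.531), and this value turned on which RP library was present. Without RP 2 it was 0.047, and without RP 1 it was 0.95. The haemoglobin share and summed neutrophil level were also higher in RP 2 than in RP 1.

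Vwf was higher in both RP libraries than in all Control-titled ones (log2 change 0.25, adjusted p = 0.804). Cldn5 (log2 change -0.53, adjusted p = 0.705) and Emcn (-0.37, 0.620) were lower without overlap, Emcn with 22.1 and 19.5 CPM in the RP libraries. Together with Cdh5 this made 1 gene higher and 3 lower without overlap, where 15.3% and 16.4% of all genes were higher and lower in this way. Sox17 differed least, with a log2 change of 0.056 (95% interval -0.43 to 0.54; adjusted p = 0.970). The receptors overlapped: Kdr was 54.6 and 42.6 CPM in RP libraries (log2 change 0.13), Flt1 86.1 and 55.5 (0.26) and Tek 19.0 and 18.3 (-0.17), with adjusted p of 0.919, 0.779 and 0.855. Pecam1 had a log2 change of 0.13 (95% interval -0.24 to 0.51; adjusted p = 0.867).

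The comparison of RP with Normal-titled libraries sets treated tumour-bearing muscle against muscle without a tumour. It shares its RP libraries with the comparison above and its Normal-titled libraries with the first. Cldn5 was lower by 3.43-fold, with a log2 change of -1.78 ± 0.343 (SE; 95% interval -2.52 to -1.04; adjusted p = 0.0154). The call was lost without RP 1 (adjusted p = 0.165), without RP 2 (0.0845), with only these 2 groups in the fit (0.0575) and with the haemoglobin covariate (log2 change -0.97, 0.246). Cldn5 was the only one of the 10 called, with 0 higher and 1 lower, beside 1.67% of all genes called higher and 0.835% lower. An unadjusted p under 0.05 was reached by 5, and the share of all genes at that cut is not given here.

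Rgcc had a log2 change of -0.92 ± 0.253 (SE; 95% interval -1.46 to -0.37; adjusted p = 0.0789), Vwf -0.70 ± 0.228 (SE; adjusted p = 0.129) and Sox17 -0.58 ± 0.224 (SE; adjusted p = 0.205). Rgcc moved from -0.53 without RP 1 to an adjusted p of 0.0228 without RP 2, and it passed by DESeq2 (0.00853), with no low-count filter (0.00323) and without Normal 3 (0.0315). Among the junction and surface genes, Cdh5 had a log2 change of -0.48 (adjusted p = 0.160), Emcn -0.37 (0.361) and Pecam1 -0.25 (0.509). The receptors gave 0.42 for Kdr (adjusted p = 0.377), -0.046 for Flt1 (0.944) and -0.12 for Tek (0.815). In RP libraries 0 of the 10 genes were higher and 6 lower than in all Normal-titled libraries without overlap, where 15.4% of all genes were higher and 15.4% lower. The 6 were Pecam1, Cdh5, Cldn5, Emcn, Rgcc and Vwf. The median log2 change was -0.42, against -0.037 over all genes.

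The wider endothelial lists place the 10 genes among others of the vessel wall. The lists share some genes with each other and with the 10, and their counts are for Control-titled against Normal-titled libraries, as a description. Over all genes tested, 4.99% were called higher and 5.45% lower, and several of these lists lie near those shares. Of 28 other pan-endothelial genes, 1 was higher and 3 lower, with a median log2 change of -0.12. Cd34, a surface sialomucin also made by fibroblast-like and satellite cells, was higher (log2 change 0.56, adjusted p = 0.0257). S1pr1, the receptor for sphingosine 1-phosphate that stabilises junctions, was 120, 126 and 129 CPM in Normal-titled and 65.9, 76.1 and 82.4 in Control-titled libraries (log2 change -0.74, adjusted p = 0.00434), with no overlap. Ecscr (-0.80, 0.0233) and Eng, a co-receptor for TGF-beta (-0.55, 0.0275), were the others that fell. Tie1, the partner receptor of Tek (0.34, adjusted p = 0.226), and Erg, an ETS factor of endothelium (-0.11, 0.841), did not pass.

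Of 16 capillary and fatty acid uptake genes, 0 were higher and 2 lower, Rgcc itself and Cd36, a fatty acid transporter of endothelium and muscle fibres (log2 change -0.72, adjusted p = 0.0309). Fabp4 (-0.43, 0.186) and Gpihbp1, which anchors lipoprotein lipase in capillaries (-0.13, 0.676), did not pass. Of 18 arterial genes tested, 0 were higher and 1, Bmx, lower, and neither Gja4 (-0.37, 0.258) nor Hey1 (-0.85, 0.0612) passed. Of 15 venous and lymphatic genes tested, 1 was higher, Ccl21a (0.77, 0.0275), and 4 lower, Vwf and Lrg1 among them. Ccl21a is a lymphatic chemokine with near-identical copies and a symbol listed on more than 1 row, so its count is uncertain. Ackr1, a chemokine-binding receptor of venules, was 35.5, 39.8 and 29.1 CPM in Normal-titled, 14.4, 14.8 and 14.6 in Control-titled and 15.6 and 24.4 in RP libraries. Its log2 change in Control-titled muscle was -1.25 (adjusted p = 0.00125), and Selp, the leukocyte-binding P-selectin of venules and platelets, fell by 1.73 on the log2 scale (0.0363).

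Of 14 endothelial activation genes tested, 0 were higher and 5 lower, with a median log2 change of -0.61. Among them were Lcn2 (-3.97, adjusted p = 6.49e-05), Selp, Lrg1 (-1.35, 0.000861) and Ackr1. Lcn2 is also a neutrophil gene and stands in the neutrophil list. The leukocyte adhesion genes Vcam1 (0.63, 0.157) and Icam1 (-0.71, 0.111) did not pass. Of 20 ligands, receptors and modulators of the VEGF and angiopoietin systems tested, 2 were higher and 4 lower, with a median log2 change of -0.0024. Vegfa, the ligand of Kdr and Flt1, was 159, 167 and 145 CPM in Normal-titled, 117, 99.3 and 122 in Control-titled and 155 and 164 in RP libraries, and fell by 0.48 on the log2 scale (adjusted p = 0.0461). That call passed in only 7 of 18 alternatives, and among left-out libraries only without Normal 1 or Normal 3. Vegfb (0.18, 0.431) and the Tek ligands Angpt1 (0.75, 0.0688) and Angpt2 (0.41, 0.328) did not pass. Angptl4, an inhibitor of lipoprotein lipase, fell (-1.90, 0.0247, but -1.03 and 0.0818 without Normal 1). Figf, the VEGF-D ligand (-1.05, 0.0197), and the hypoxia factor Hif1a (-0.76, 0.0207) also fell. Apln (2.66, 0.00735) and its receptor gene Aplnr (1.07, 0.0154) rose. Apln stood at 0.63, 2.58 and 0.29 CPM in Normal-titled, 7.41, 6.00 and 8.86 in Control-titled and 2.80 and 1.54 in RP libraries. Its mean over all libraries was under 5 CPM, so its change rests on few reads.

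Of 12 tip cell and sprouting genes, 2 were higher and 1 lower: Apln and Nid2 (1.18, 0.0153) rose and Adm (-1.43, 0.00251) fell. Of 16 flow and FoxO1 responsive genes, 1 was higher and 2 lower: Ccnd1, cyclin D1 (1.42, 0.00541), rose, and Sesn1 (-1.35, 0.00125) and Foxo1 (-0.75, 0.0269) fell, genes that muscle fibres also express. The flow-induced factors Klf2 (-0.014, 0.969) and Klf4 (-0.036, 0.918) did not pass. Of 15 mural cell genes, 0 were higher and 1 lower, Des (-0.69, 0.0265), which muscle fibres make in quantity. The pericyte genes Pdgfrb (-0.00089, 0.998) and Rgs5 (-0.14, 0.704) and smooth muscle Acta2 (0.58, 0.184) did not pass.

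Of the 24 wider genes called in Control-titled against Normal-titled libraries, the 10 set aside, 8 passed with each library left out in turn: Ackr1, Adm, Apln, Ccnd1, Lcn2, Lrg1, S1pr1 and Sesn1. Each of the others lost its call without at least 1 library. Apln was 3.96 without Normal 2. With the Hba-a1 covariate 5 passed: Angptl4, Cd36, Lcn2, Lrg1 and Sesn1. Against Control-titled libraries, RP libraries had 0 genes called in these vessel lists. Against Normal-titled libraries S1pr1 (log2 change -0.70, adjusted p = 0.0319), Lcn2 (-2.41, 0.00692) and Sesn1 (-0.95, 0.0485) were lower in RP libraries, and 0 of these 3 passed with each library left out.

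**Figure D5:**
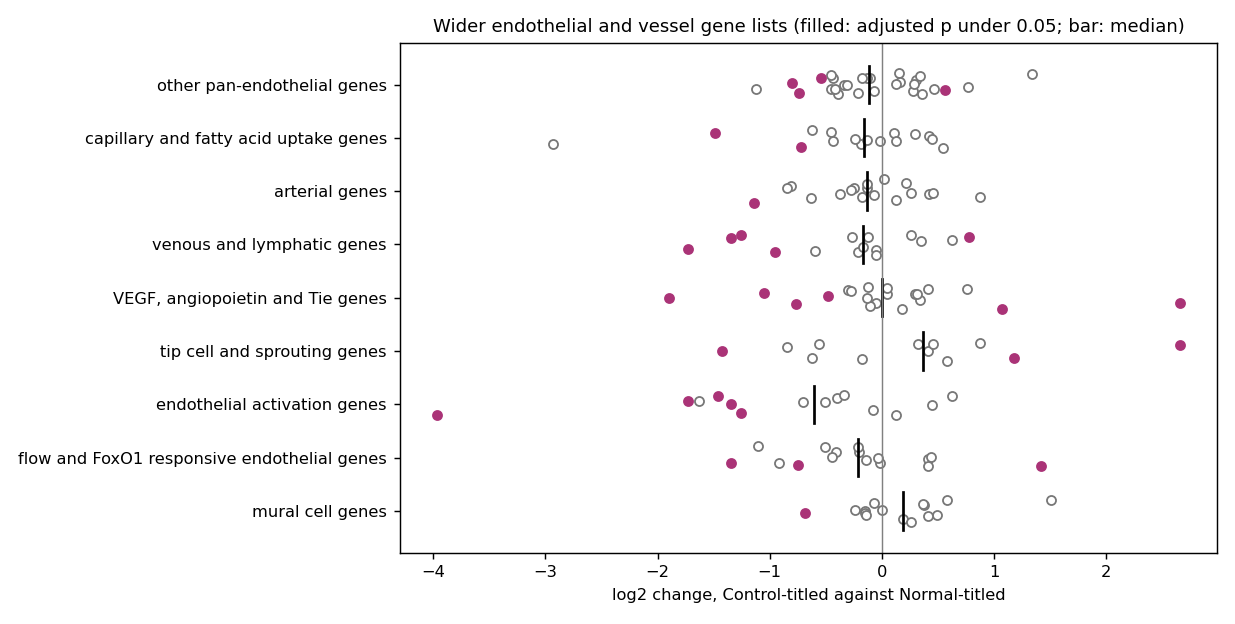
log2 change of each tested gene (x axis) in Control-titled against Normal-titled libraries for 9 endothelial and vessel lists (y axis); filled points passed an adjusted p under 0.05 and bars are list medians. The medians run from -0.61 for the endothelial activation genes to 0.36 for the tip cell and sprouting genes.

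Genes of other muscle cell types were counted in Control-titled against Normal-titled libraries. Over all genes tested there, 4.99% were called higher and 5.45% lower. Of 15 fibroblast and tendon genes, 8 were higher and 0 lower in Control-titled libraries, and they summed to 7052 to 13098 CPM in Normal-titled, 12404 to 14073 in Control-titled and 12100 and 12672 in RP libraries. Muscle fibre genes summed to 76142 to 105739, 89903 to 110545 and 110328 to 116002 CPM in the same order, with 1 of 10 higher (Mylpf) and 0 lower. Among 14 macrophage genes 1 was higher (Folr2) and 0 lower, with a median log2 change of 0.20. Among 10 satellite cell genes 0 were higher and 3 lower (Myod1, Myog and Sdc4), with a median log2 change of -0.12. The part of these cell types in the endothelial values was not tested.

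Genes with a level pattern most like each endothelial pattern were ranked by Pearson's r of log2 CPM over the 8 libraries among 9727 genes with a mean of at least 5 CPM. The libraries share their groups, so a high r can come from the group difference alone, and no p is given. Which cells expressed the ranked genes was not tested. For Rgcc they were Smc5 (r = 0.990), Csf2rb2 (0.984), Ifrd1 (0.981), Pbdc1 (0.976) and Ackr1 (0.975). For Vwf they were Ly6c2 (0.973), Eci2 (0.973), Ppp1r27 (0.972), Psma1 (0.970) and Naa25 (0.967). For Sox17 they were Pfdn2 (0.969), Mrps18b (0.967), Adipor2 (0.965), Ccndbp1 (0.960) and Ccdc47 (0.958). For the mean of the 7 pan-endothelial genes they were Efnb1 (0.961), Nrbp2 (0.952), Jam2 (0.937), Mgat4a (0.932) and Pi4ka (0.929).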

How the data were processed

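Gastrocnemius RNA of 8 mouse libraries was measured with 3' mRNA sequencing. The values are raw counts per gene symbol, 1 table per library, as the authors deposited them. Bowtie2, edgeR and mm10 are listed, unversioned, per the submitters' processing notes, while the counting tool, strand and annotation are not given in the sources used here. Symbols listed more than once (35) were kept as separate rows.

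Libraries were grouped by title. Of 23282 rows, 13174 passed edgeR's filterByExpr at its default settings and entered edgeR 4.0.16 under R 4.3.3 (TMM, quasi-likelihood test, 2-sided, all 8 libraries in 1 fit without a replicate block, common biological coefficient of variation 0.195). P-values were adjusted by Benjamini-Hochberg over all genes of a comparison, with a threshold of 0.05. CPM is scaled by TMM, log2 CPM has a prior count of 2, and SE is the log2 change divided by the square root of the F statistic. Poisson and Wilson intervals (95%) cover counting error only.

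All 10 genes were named whatever their result. From each wider list up to 4 called genes with the largest change and a mean of at least 5 CPM were named, plus 21 fixed genes. Bmx, Apln, Ccl21a, Treml1, Pf4, Gp6, Tubb1, Gp1ba, Gp1bb and the called genes of the non-vascular lists fall outside that rule and were named after their values were seen. Some list genes are not reported here. The members and lists were chosen with earlier results of these data known.

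Alternatives were RLE and upper-quartile scaling, no filter, a mean of at least 5 CPM, DESeq2 1.42.0, limma-voom (limma 3.58.1), only the 2 groups compared, a replicate block, haemoglobin genes and Rn45s removed, log2 Hba-a1 as a covariate, a threshold of 0.1 and each library left out. A reference without Cldn5, and the same settings for wider genes, were added after the data were seen. The test was tried on simulated counts. Positions come from GENCODE M21 on GRCm38 (mm10) and promoters from RefSeq.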

Additional observations from a re-analysis of the deposited data

How the results depend on the processing

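The first counts are against Normal-titled libraries. In Control-titled muscle 3 of the 10 genes were called, and this count was 0 with the Hba-a1 covariate. It was 2 to 4 when each library was left out. Sox17 was called as well with no filter, by DESeq2 and at a threshold of 0.1. In RP libraries 1 gene was called, and the count was 2 with no filter, 2 by DESeq2, 2 at a threshold of 0.1, 0 with only the 2 groups compared, 0 with the covariate and 0 to 3 when each library was left out. With 1 RP library removed, the other has no spread of its own and takes that of the remaining groups. The replicate block gave 3, 0 and 1 genes called, as without it. Deviations of same-numbered libraries correlated at -0.068 to 0.080, and not every library correlated best with its own number. These deviations are from group means and cancel within each group. Whether the numbers pair the libraries therefore cannot be told from them. Small changes turned sign. In Control-titled against Normal-titled libraries, Emcn was 0.041 with upper-quartile scaling, 0.010 at a mean of at least 5 CPM and 0.0055 with haemoglobin genes and Rn45s removed, and the covariate gave Cdh5 -0.22, Kdr -0.28 and Tek -0.31. In RP against Normal-titled libraries, Flt1 was 0.037 with the replicate block and Kdr -0.071 with the covariate, and Sox17 against Control-titled libraries was -0.042 with it. Leaving out each library gave Emcn -0.16 to 0.089 and Tek -0.063 to 0.17 in Control-titled against Normal-titled libraries. It gave Kdr -0.064 to 0.33, Flt1 -0.090 to 0.54 and Sox17 -0.15 to 0.24 in RP against Control-titled, and Flt1 -0.40 to 0.24 and Tek -0.21 to 0.0054 in RP against Normal-titled libraries. None of these genes was called there, and the cause was not tested. Over all genes, 1376 were called in Control-titled against Normal-titled libraries, against 382 with the covariate, 2201 at 0.1, 805 without Normal 2, and 609, 846 and 608 without Control 1, 2 and 3. For RP against Control-titled libraries 23 were called, against 204 with no filter, 111 by DESeq2, 121 with only the 2 groups, 11 at a mean of at least 5 CPM, 10 by limma-voom, 51 at 0.1 and 8 to 72 with a library left out. For RP against Normal-titled libraries 330 were called, against 718 with no filter, 646 by DESeq2, 100 with only the 2 groups, 104 with the covariate, 710 at 0.1 and 57 to 670 with a library left out. In Control-titled against Normal-titled libraries Rgcc ranged from -1.62 to -1.32 and Vwf from -1.15 to -0.73 over 18 alternatives, each past the threshold in 17.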
